A study of Mus musculus with 38 samples.

Results

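The 7 genes described here, Lmo2, Lyl1, Tal1, Hhex, Mef2c, Bcl11a and Meis1, encode transcription factors of blood stem and progenitor cells, and the data are the chromatin immunoprecipitation and sequencing (ChIP-seq) peaks listed around them. A peak was assigned to a gene when its centre fell inside the gene body or within 100 kb of either end. These windows spanned 1846.69 kb and held 585 of the 359759 peaks in all 17 lists of the series, and overlapping peaks merged into 147 regions. The members are 7 of the 21951 protein-coding genes of the annotation used, and they were chosen by name, not by their signal. The files hold no RNA values for them, so nothing here says how strongly a gene was expressed.

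The cells were Cas9-LPs, lymphoid progenitor (LP) lines from mouse fetal liver that lacked Ebf1, a factor required for B-cell development, and carried Cas9 from the Rosa26 locus. All groups therefore shared Ebf1 deficiency and the Cas9 knock-in, and all were kept with SCF, Flt3L and IL-7 on mitomycin C-treated OP9 stroma. LP cells grew on OP9 without a Notch ligand, Phase 1 cells were early T-cell precursors after coculture with OP9-DLL4, which presents the Notch ligand DLL4, and Phase 2 cells were taken later in that coculture. RUNX1, CTCF, Med12 and p300 were immunoprecipitated at LP and Phase 1, and the Notch1 intracellular domain (Notch1-IC) with a mixture of antibodies at LP, Phase 1 and Phase 2. Retroviral guides, marked with hNGFR, gave 6 further groups: RUNX1 in LP cells with sgCont or sgCTCF, Med12 in Phase 1 cells with sgCont or sgCbfb, and RUNX1 in Phase 1 cells with sgCont or sgMed12. Each of the 19 groups, 2 of them input, had 2 replicates, but each peak list combines both, so no replicate spread exists and no test between groups was possible. The cells are a line, and the labels do not say what separates the replicates. The lists give no read counts, so the depth behind each peak is unknown.

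As background, Tal1 and Lyl1 are closely related basic helix-loop-helix factors that bind E-box sequences with an E protein partner. Lmo2 is a LIM-domain adaptor that binds no DNA itself and bridges Tal1 or Lyl1 to GATA factors through Ldb1. Hhex and Meis1 are homeodomain factors, Meis1 acting with Hox proteins, Mef2c is a MADS-box factor of lymphoid and myeloid progenitors, and Bcl11a is a zinc-finger factor of lymphoid precursors. These genes are active in early progenitors and are switched off, at different times, as T-cell precursors become committed. RUNX1 binds DNA with its partner Cbfb, p300 is an acetyltransferase coactivator, Med12 is a subunit of the Mediator kinase module, and CTCF is the zinc-finger protein that marks chromatin loop anchors.

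A peak is called LP-specific or Phase 1-specific below when no peak of the same factor at the other stage overlapped it by at least 1 bp, and shared otherwise. Scores are the normalized peak scores of the peak caller, at least 15 in every list, and their scale differs between lists. A score is therefore read through its place in its own list, given as the top percent of that list, so that a smaller number is a stronger peak. Positions are in kb from the annotated start of the gene, negative before it, on mm10. Intervals are 95% Wilson intervals and cover counting error only. A peak that is not listed may lie under the score minimum or fail reproducibility, and is not shown to be unbound.

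RUNX1 had 56 LP peaks and 65 Phase 1 peaks in the 7 windows, of which 8 were LP-specific and 17 Phase 1-specific. The LP-specific share was 14.3% (7.42 to 25.7), beside 16.8% of the whole LP list, and the Phase 1-specific share was 26.2% (17.0 to 38.0), beside 30.7% of the whole Phase 1 list. Both intervals held the value of the whole list. CTCF had 8 LP-specific peaks of 72 (11.1%, 5.74 to 20.4; whole list 9.55%) and 1 Phase 1-specific peak of 65 (1.54%, 0.272 to 8.21; whole list 8.35%). Med12 had 13 LP-specific peaks of 51 (25.5%, 15.5 to 38.9; whole list 19.5%) and 20 Phase 1-specific peaks of 58 (34.5%, 23.6 to 47.3; whole list 38.2%). The coactivator p300 had 14 LP-specific peaks of 66 (21.2%, 13.1 to 32.5; whole list 20.7%) and 21 Phase 1-specific peaks of 73 (28.8%, 19.7 to 40.0; whole list 41.6%). The low CTCF and p300 shares at Phase 1 were the only ones of these 8 whose interval did not hold the whole-list value, and neighbouring peaks are not independent. Without promoter peaks the CTCF interval (0.285 to 8.59) held the whole-list 8.10%. The Phase 1 lists of RUNX1, Med12 and p300 are longer than the LP lists, and with lists cut to the same number of peaks the p300 shares were 34.8% LP-specific (24.5 to 46.9; whole list 30.9%) and 21.8% Phase 1-specific (12.9 to 34.4; whole list 30.9%). Under that cut the RUNX1 shares were 23.2% LP-specific (13 of 56, 14.1 to 35.8) and 18.9% Phase 1-specific (10 of 53, 10.6 to 31.4), each beside a whole-list 22.3%. The Med12 shares were 27.5% LP-specific (14 of 51, 17.1 to 40.9) and 22.9% Phase 1-specific (11 of 48, 13.3 to 36.5), each beside a whole-list 27.4%. For RUNX1, Med12 and p300 the windows then held more LP-specific than Phase 1-specific peaks. The cut makes the whole-list shares of both stages equal, and each of these intervals held the whole-list value.

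**Figure D1:**
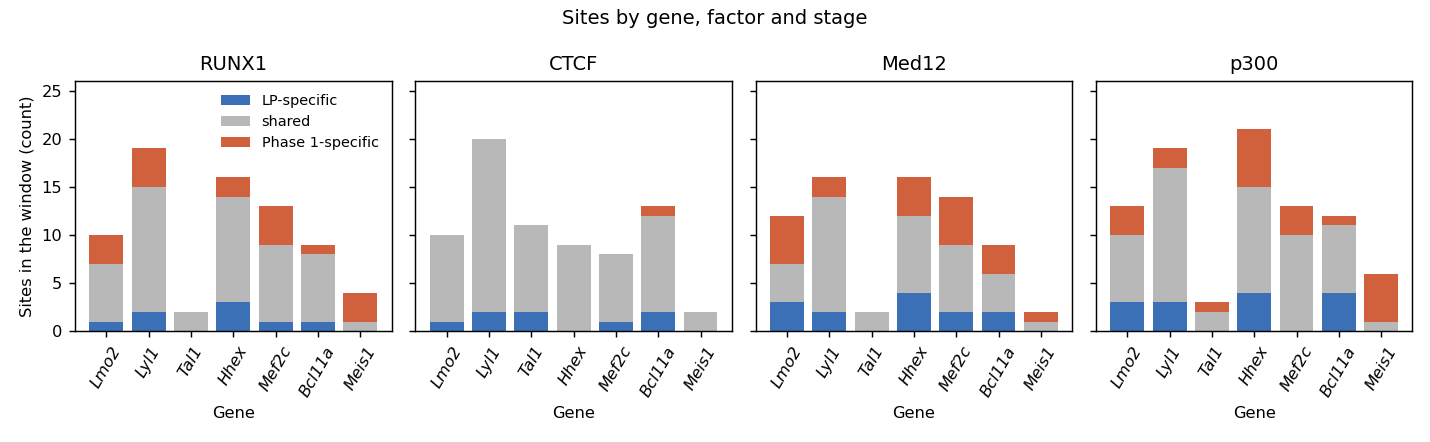
Number of sites per gene window for RUNX1, CTCF, Med12 and p300, split into LP only, both stages and Phase 1 only. Lyl1 and Hhex carried many RUNX1 sites, Tal1 only 2, both shared, and Meis1 had 3 of its 4 Phase 1 RUNX1 peaks in Phase 1 only.

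The number of stage-specific RUNX1 sites differed between the genes, as did the number of all RUNX1 peaks. For every gene, the interval of the stage-specific share held the whole-list share, 16.8% in LP and 30.7% in Phase 1. Lyl1 had 15 LP and 17 Phase 1 RUNX1 peaks, of which 2 and 4 were stage-specific. Hhex had 14 and 13, with 3 LP-specific and 2 Phase 1-specific. Mef2c had 9 and 12, with 1 and 4, and Lmo2 had 7 and 9, with 1 and 3. Bcl11a had 8 at each stage, with 1 specific peak at each. Meis1 had 1 LP peak, which was shared, and 4 Phase 1 peaks, of which 3 were Phase 1-specific, and Tal1 had 2 shared peaks at each stage. The windows hold other genes as well, up to 6 other protein-coding genes for Lyl1 and none for Mef2c and Meis1. The member was the gene with the nearest RefSeq start for 26 of the 56 LP and 36 of the 65 Phase 1 RUNX1 peaks.

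Most of the stage-specific RUNX1 peaks were weak, as such peaks were in the whole lists, where their medians were 22.8 in LP and 23.2 in Phase 1. The 8 LP-specific peaks scored 15.7 to 27.6, with a median of 21.2, where the median of the LP RUNX1 list was 47. The 17 Phase 1-specific peaks scored 15 to 266.7, with a median of 23.2 where the list median was 44, and 12 of them scored under 30. The LP-specific peaks reached a score of 73.3 for Med12, 87.9 for p300 and 186.2 for CTCF, and the Phase 1-specific peaks reached 85 for Med12 and 83.3 for p300. The exception at 266.7 lies in Lyl1 and is described below.

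Lmo2 (chr2:103957986-103981878, plus strand) had 2 stage-specific RUNX1 sites only 811 bp apart, upstream of the gene in an intergenic stretch nearest to the noncoding gene Lincred1. The LP-specific site at -56.3 kb carried RUNX1 with a score of 27.1, Med12 with 26.4 and p300 with 37.5 in LP cells, and none of these factors was listed there in Phase 1. The Phase 1-specific site at -55.5 kb carried RUNX1 with 24.0, Med12 with 28.7 and p300 with 38.0 in Phase 1 cells, and none of these in LP cells. The central 200 bases of both peaks are shown because they are the closest pair with opposite stage calls. Here and below, capitals mark matches, on either strand, to short strings: TGTGGT or TGCGGT for RUNX, GAGGAAGT for PU.1, AGATAA for GATA factors, CAGATG or CAGCTG for E-boxes, GTGGGAA for RBPJ, TGACTCA for AP-1, and the CTCF consensus. Matches that touch form 1 run of capitals, and sequences read 5′ to 3′ along the plus strand of mm10.
Lmo2 -56.3 kb, LP-specific, chr2:103901567-103901766: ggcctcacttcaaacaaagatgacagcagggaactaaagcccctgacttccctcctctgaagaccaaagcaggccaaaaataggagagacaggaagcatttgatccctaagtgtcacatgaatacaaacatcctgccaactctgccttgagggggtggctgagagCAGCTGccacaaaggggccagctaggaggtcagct
Lmo2 -55.5 kb, Phase 1-specific, chr2:103902378-103902577: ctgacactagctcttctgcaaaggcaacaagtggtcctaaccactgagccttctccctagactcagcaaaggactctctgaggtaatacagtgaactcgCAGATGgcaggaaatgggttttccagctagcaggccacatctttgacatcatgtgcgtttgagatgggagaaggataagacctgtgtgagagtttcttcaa
Each held 1 E-box string and neither held a RUNX string.

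Nearer to Lmo2, the shared site at -12.2 kb was higher at Phase 1 in each factor. RUNX1 scored 54.2 in LP cells, in the top 44.4% of its list, and 109.1 in Phase 1 cells, in the top 18.6%. Med12 went from 42.4 to 78.4 and p300 from 67.9 to 106.4. Just upstream of it, at -12.9 kb, Med12 had an LP-specific peak with a score of 39.0, a site picked after its values were seen. The RUNX1 peak within the gene at +12.1 kb, near an internal start, changed little, with 35.2 in LP and 32.9 in Phase 1. The strongest RUNX1 peak of the window lay at +69.7 kb at the promoter of Fbxo3, an F-box protein gene, with 114.8 and 186.1. One CTCF peak was LP-specific, at -61.0 kb with a score of 15.8. Of the 6 shared RUNX1 sites in the window, 5 had a higher place in Phase 1 (61.8% of all shared RUNX1 sites). The site at +12.1 kb is 1 of these, in the top 62.5% and then the top 62.0%, though its rank was lower in Phase 1 (19993 in LP, 23793 in Phase 1).

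Lyl1 (chr8:84701457-84704715, plus strand) held the strongest sites of all 7 genes, and it lies within the annotated body of an Nfix transcript. At -1.35 kb, in an exon of that transcript, RUNX1 scored 318.9 in LP cells, in the top 1.16%, and 222.2 in Phase 1, in the top 4.47%. Med12 scored 418.1 there and then 238.3, in the top 0.333% and top 1.43%, and p300 scored 836.7 and then 444.3, in the top 0.18% and top 1.25%. All 3 factors were therefore listed lower at Phase 1, while CTCF beside it, at -1.52 kb, scored 163.7 and 195.4. At the Lyl1 promoter, -0.07 kb, RUNX1 was placed higher at Phase 1, from 269.9 in the top 2.17% to 351.6 in the top 1.09%. Med12 had 380.6 and 304.1 there, at nearly the same place (top 0.576% and top 0.603%). The p300 scores were 532.1 and 387.6, in the top 0.871% and top 1.76%.

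Within the gene, at +2.12 kb, lay the strongest stage-specific RUNX1 peak of the 7 windows, Phase 1-specific with a score of 266.7. It was in the top 2.72% of the Phase 1 list, where only 12 of the 1045 RUNX1 peaks that scored as high or higher were Phase 1-specific. Neither Med12 nor p300 was listed at this site at either stage. Guide-treated Phase 1 cells also listed RUNX1 there, with 57.8 in sgCont, in the top 3.35%, and 49.3 in sgMed12, in the top 1.05%. Downstream of it, at +3.15 kb in a UTR of the gene, CTCF had an LP-specific peak with a score of 186.2, in the top 14.5% of the LP CTCF list, where 39 of the 6604 peaks that scored as high or higher were LP-specific. The shared upstream site and the Phase 1-specific site inside the gene are shown.
Lyl1 -1.35 kb, shared, chr8:84700008-84700207: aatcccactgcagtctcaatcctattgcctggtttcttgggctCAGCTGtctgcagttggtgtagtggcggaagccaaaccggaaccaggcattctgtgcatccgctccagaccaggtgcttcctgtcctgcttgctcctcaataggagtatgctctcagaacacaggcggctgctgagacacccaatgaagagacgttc
Lyl1 +2.12 kb, Phase 1-specific, chr8:84703476-84703675: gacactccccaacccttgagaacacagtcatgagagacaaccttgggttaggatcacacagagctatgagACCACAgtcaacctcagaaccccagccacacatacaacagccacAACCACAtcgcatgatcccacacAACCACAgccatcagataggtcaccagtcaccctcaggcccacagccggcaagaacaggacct
The site at +2.12 kb held 3 RUNX strings and no other string, and the stronger site at -1.35 kb held 1 E-box string and no RUNX string.

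Further out in the Lyl1 window, the site at +29.5 kb was Phase 1-specific in 3 factors, with 39.8 for RUNX1, 65.0 for Med12 and 83.3 for p300. The LP-specific RUNX1 peaks, at +62.8 kb with 24.1 and at +97.9 kb with 23.7, lay in an intron of Nfix and both overlapped an LP CTCF peak. A second LP-specific CTCF peak lay at +99.0 kb with 27.6. The strongest CTCF peak of the 7 windows lay at -62.0 kb with 506.2 in LP and 740.5 in Phase 1, in the top 0.154% and top 0.0871%. Of the 13 shared RUNX1 sites, 6 had a higher place in Phase 1 (61.8% of all shared RUNX1 sites).

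Tal1 (chr4:115056426-115071755, plus strand), the relative of Lyl1, differed from it in how few sites it had. RUNX1 was listed only at the promoters of its neighbours, at -56.4 kb at Stil, a centriole gene, with 141.3 in LP and 150.4 in Phase 1, and at -69.2 kb at Cmpk1, a nucleotide kinase gene, with 67.7 and 79.8. No RUNX1, Med12 or p300 peak lay in the gene body at either stage. A single p300 peak at -21.1 kb, with 17.1 in Phase 1 only, was the nearest of these factors to the Tal1 start. CTCF had 11 LP and 9 Phase 1 peaks, and all of them lay apart from RUNX1, Med12 and p300 peaks. The 2 LP-specific CTCF peaks, at +6.99 kb in a coding exon of Tal1 with 22 and at +57.03 kb with 16, were weak.

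Hhex (chr19:37434810-37440731, plus strand) had RUNX1 at its promoter at both stages, with 101.4 in LP and 86.9 in Phase 1. The LP-specific RUNX1 peak at -15.02 kb, in an intron of the kinesin gene Kif11, scored 27.6 and lay on a CTCF site that was shared, with 219.5 in LP and 227.5 in Phase 1. Of the unperturbed Med12 lists only that of LP cells had it, with 29.2, while p300 was listed at both stages, with 30.8 and 21. At +8.31 kb, downstream of the gene, RUNX1 with 53.3, Med12 with 85.0 and p300 with 72.2 were all Phase 1-specific. Within the gene, an exonic site at +1.81 kb, picked after its values were seen, carried Med12 with 73.3 and p300 with 87.9 in LP cells only, without a RUNX1 peak. A separate exonic p300 peak, at +1.075 kb with 38.5, was Phase 1-specific, so p300 was listed within the gene at both stages. Both stage-specific RUNX1 sites are shown because they differ in the strings they hold.
Hhex -15.02 kb, LP-specific, chr19:37419688-37419887: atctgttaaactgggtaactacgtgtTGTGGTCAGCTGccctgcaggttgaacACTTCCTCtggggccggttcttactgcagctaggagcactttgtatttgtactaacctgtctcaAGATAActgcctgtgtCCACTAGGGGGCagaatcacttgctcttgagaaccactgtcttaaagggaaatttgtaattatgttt
Hhex +8.31 kb, Phase 1-specific, chr19:37443019-37443218: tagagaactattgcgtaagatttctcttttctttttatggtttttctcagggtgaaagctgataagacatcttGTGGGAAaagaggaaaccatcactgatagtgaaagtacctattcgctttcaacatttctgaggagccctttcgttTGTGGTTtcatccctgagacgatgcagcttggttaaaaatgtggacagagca
The LP-specific site held 1 RUNX string joined to an E-box string, then a PU.1 string, a GATA string and the CTCF consensus. The Phase 1-specific site held 1 RBPJ string and 1 RUNX string.

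The other LP-specific RUNX1 peaks of Hhex scored 18.0 at +38.0 kb and 18.8 at +100.3 kb. Among shared sites, that at +89.1 kb, picked after its values were seen, was placed higher in Phase 1 in 3 factors, with RUNX1 at 38.6 and 71.6, Med12 at 20.5 and 80.2, and p300 at 32.3 and 136.7. The highest RUNX1 scores were at the Kif11 promoter at -58.6 kb, with 118.8 and 148.5. Of the 11 shared RUNX1 sites, 7 had a higher place in Phase 1 (61.8% of all shared RUNX1 sites).

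Mef2c (chr13:83504034-83667080, plus strand), the longest gene of the set, had its strongest site in an intron at +68.2 kb. RUNX1 scored 251.6 in LP cells, in the top 2.73%, and 173.7 in Phase 1, in the top 8.10%. Med12 scored 389.8 and 270.3, in the top 0.523% and top 0.953%, and p300 scored 566.2 and 345.0, in the top 0.691% and top 2.27%. A site upstream, at -45.1 kb, differed the other way, in that its RUNX1 peak, with 57.4, was Phase 1-specific, while Med12 had 17.0 in LP and 64.9 in Phase 1 and p300 had 23.5 and 67.1. The intronic site at +87.0 kb also had RUNX1 placed higher in Phase 1, with 20.2 (top 87.0%) and 72.7 (top 31.2%). At +105.3 kb Med12 was placed lower, with 131.9 (top 14.2%) and 70.5 (top 26.5%). So was p300 there, with 258.9 (top 5.32%) and 162.4 (top 10.8%). Those last sites were picked after their values were seen.
Mef2c +68.2 kb, shared, chr13:83572105-83572304: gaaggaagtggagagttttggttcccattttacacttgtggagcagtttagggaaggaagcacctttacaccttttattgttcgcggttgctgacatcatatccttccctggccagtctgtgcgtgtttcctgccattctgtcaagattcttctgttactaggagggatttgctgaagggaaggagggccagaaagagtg
Mef2c -45.1 kb, Phase 1-specific, chr13:83458833-83459032: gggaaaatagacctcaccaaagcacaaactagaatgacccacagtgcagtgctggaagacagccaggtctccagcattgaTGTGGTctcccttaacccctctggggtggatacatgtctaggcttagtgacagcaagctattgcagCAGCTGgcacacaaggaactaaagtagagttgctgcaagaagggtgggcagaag
The site at +68.2 kb, shown as the one with Notch1-IC, held no string of any of the 7 families, and that at -45.1 kb held 1 RUNX string and 1 E-box string.

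Near the internal Mef2c start at +20.7 kb, RUNX1 scored 43.3 in LP and 26.3 in Phase 1. The single LP-specific RUNX1 peak lay past the gene at +208.5 kb with 15.7, and the single LP-specific CTCF peak at +63.2 kb with 24.3. Of the 8 shared RUNX1 sites, 3 had a higher place in Phase 1 (61.8% of all shared RUNX1 sites).

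Bcl11a (chr11:24078056-24174123, plus strand) had its LP signal mainly downstream of the gene. At +122.4 kb RUNX1 scored 94.6 in LP cells, in the top 23.6%, and 36.8 in Phase 1, in the top 57.2%. Med12 there scored 86.2 and 17.6, in the top 27.6% and top 91.1%, and p300 scored 122.3 and 16.6, in the top 21.8% and top 94.7%, with a weak LP-specific CTCF peak of 19.1. At +165.1 kb RUNX1 scored 78.9 and 42.8, Med12 82.8 and 45.2, and p300 126.5 and 28.6. All 3 factors were thus placed lower at Phase 1 at both sites. An intronic site at +54.0 kb, picked after its values were seen, was placed higher at Phase 1, with RUNX1 at 15 and 53.2, p300 at 16.4 and 65.1, and Med12 listed in Phase 1 only with 35.9. The downstream pair is shown because these sites also carried Notch1-IC.
Bcl11a +122.4 kb, shared, chr11:24200324-24200523: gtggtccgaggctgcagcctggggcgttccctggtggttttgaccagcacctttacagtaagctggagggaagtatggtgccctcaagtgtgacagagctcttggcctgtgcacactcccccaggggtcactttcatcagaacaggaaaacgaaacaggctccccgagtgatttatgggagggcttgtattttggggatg
Bcl11a +165.1 kb, shared, chr11:24243081-24243280: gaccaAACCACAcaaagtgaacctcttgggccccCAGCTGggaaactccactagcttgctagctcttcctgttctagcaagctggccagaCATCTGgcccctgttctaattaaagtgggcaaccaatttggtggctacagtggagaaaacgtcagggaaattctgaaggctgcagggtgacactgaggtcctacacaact
The first held no string of any family, and the second held 1 RUNX string and 2 E-box strings.

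The RUNX1 peak nearest the Bcl11a start, at -1.6 kb and annotated as intergenic, scored 40.0 and 43.3, and the site at +107.0 kb scored 88.5 and 90.9. The stage-specific RUNX1 peaks were weak, 17.6 in LP cells at -90.2 kb and 16.4 in Phase 1 cells at +46.1 kb. The only Phase 1-specific CTCF peak of the 7 windows lay in a Bcl11a intron at +16.3 kb with 16.1, close to the minimum of the list, and a further LP-specific CTCF peak lay at +139.9 kb with 15.7.

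Meis1 (chr11:18879817-19018985, minus strand) had a single LP RUNX1 peak, the fewest of the 7 genes, and 4 in Phase 1. That LP peak, in an intron at +93.9 kb, scored 21.1 in the top 85.0% and 76.4 in Phase 1 in the top 29.6%. Med12 there went from 46.0, in the top 52.4%, to 160.3, in the top 5.08%, and p300 from 22.6 to 77.3. A Phase 1-specific site at +70.0 kb had RUNX1 with 36.6, Med12 with 27.9 and p300 with 65.1. At the Meis1 start itself RUNX1 with 16.6 and p300 with 24.1 were listed in Phase 1 only, and a RUNX1 peak at +48.8 kb scored 16.7. CTCF lay 5.66 kb before the start, with 66.7 and 94.5.
Meis1 +70.0 kb, Phase 1-specific, chr11:18948915-18949114: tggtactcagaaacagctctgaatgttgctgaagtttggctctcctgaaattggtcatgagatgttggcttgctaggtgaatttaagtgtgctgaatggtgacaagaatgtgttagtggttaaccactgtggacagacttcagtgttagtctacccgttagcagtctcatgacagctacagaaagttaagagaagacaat
This strongest Phase 1-specific site of Meis1 held no string of any family.

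**Figure D2:**
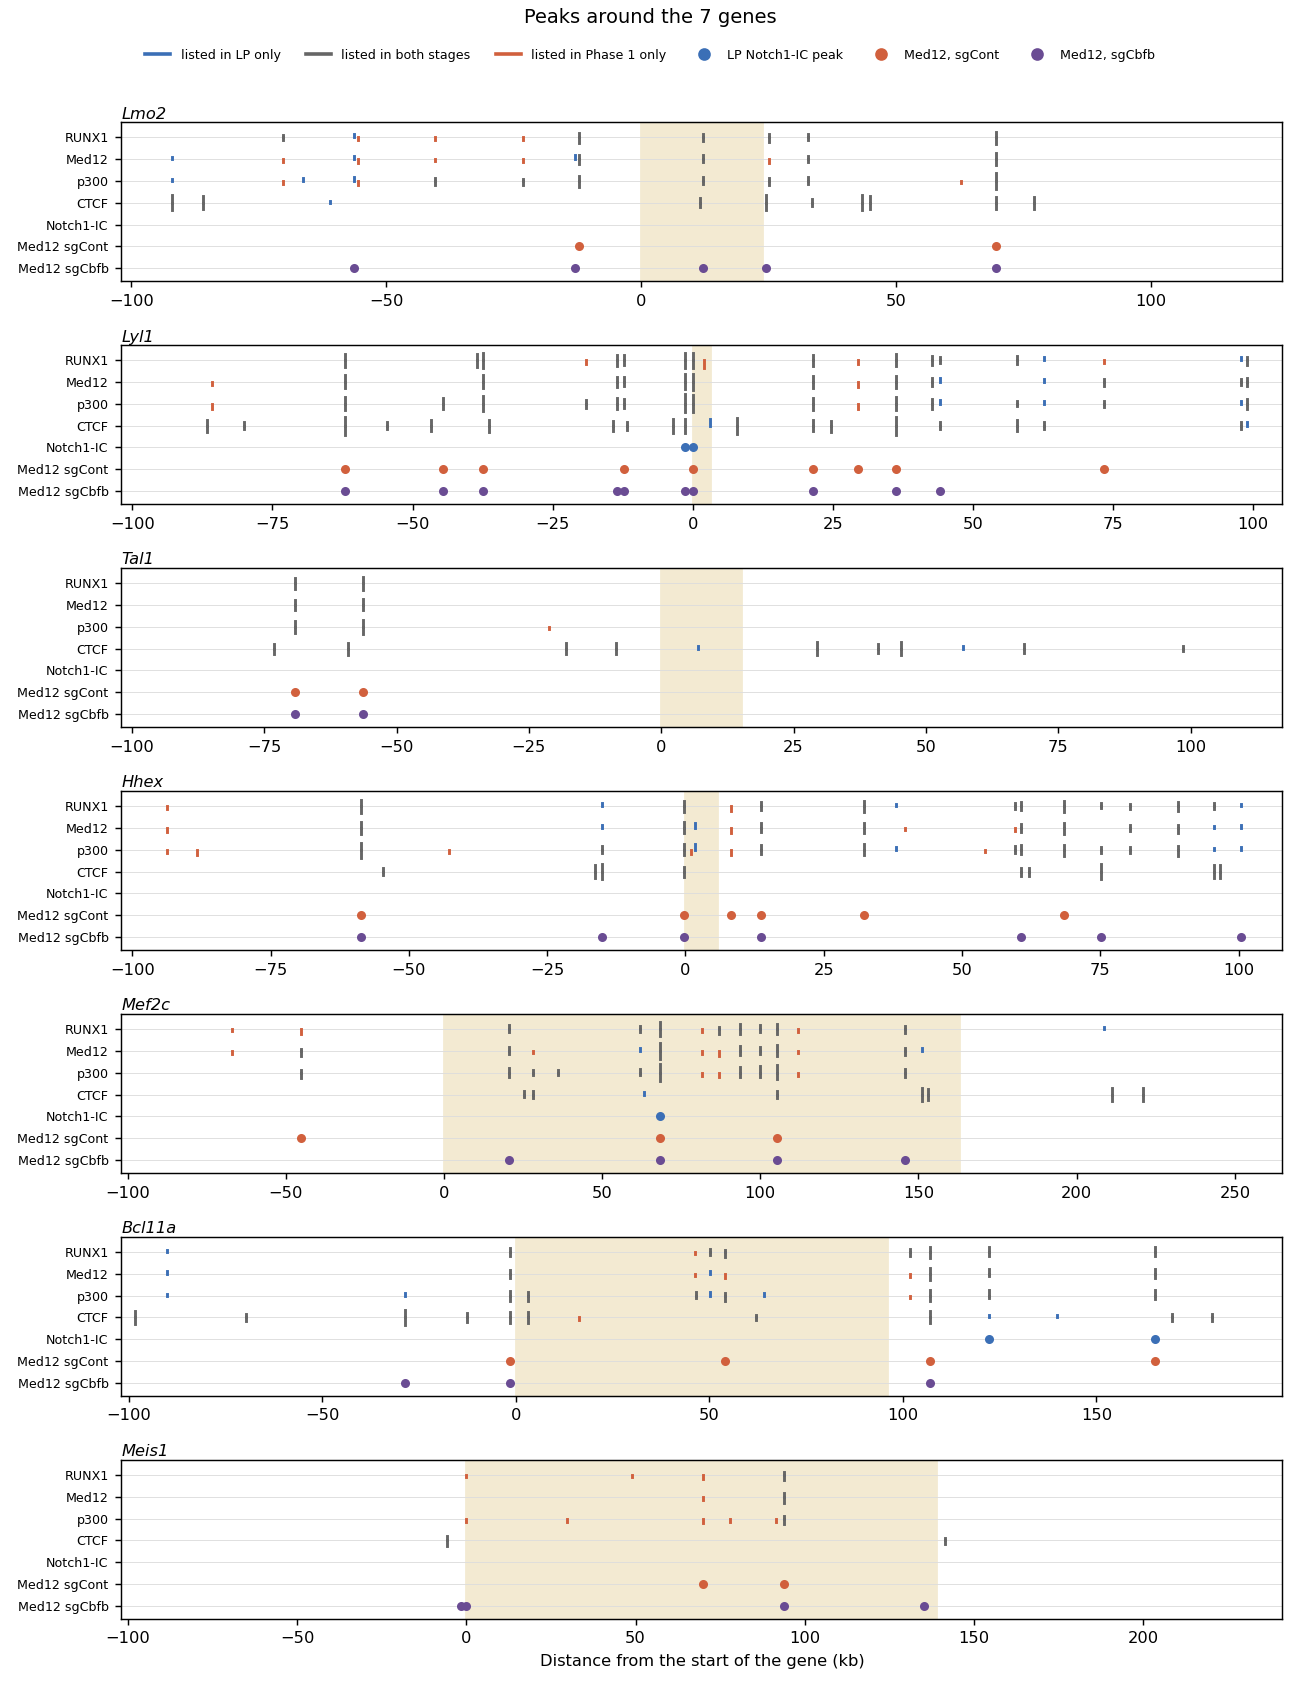
Peaks along the window of each gene by distance from its start in kb, with LP peaks drawn up and Phase 1 peaks down, tick length rising with the log10 of the score and the gene body shaded. Blue ticks are LP only, grey both stages and orange Phase 1 only, and dots mark LP Notch1-IC and Med12 in sgCont and sgCbfb cells. Orange RUNX1, Med12 and p300 ticks fall together at Hhex +8.31 kb and Lyl1 +29.5 kb, and the Tal1 body carries no RUNX1 tick.

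Among the shared sites described above, some were placed lower at Phase 1 in RUNX1, Med12 and p300. They included Lyl1 -1.35 kb, the Hhex promoter, Mef2c +20.7 kb and +68.2 kb, and Bcl11a +122.4 kb and +165.1 kb. Sites placed higher in the same 3 factors included Lmo2 -12.2 kb, Hhex +89.1 kb, Meis1 +93.9 kb, Bcl11a -1.6 kb and the Kif11 and Fbxo3 promoters. The Phase 1 lists of these factors are longer, so a higher place there can come without a higher score or rank. At the Fbxo3 promoter Med12 scored 114.6 in LP (rank 5419) and 93.6 in Phase 1 (rank 6527). RUNX1 at Bcl11a -1.6 kb ranked 18164 in LP and 19428 in Phase 1. Of the 48 shared RUNX1 sites, 28 had a higher place in the Phase 1 list, which is 58.3% (44.3 to 71.2) beside 61.8% of all shared RUNX1 sites. The same count was 25 of 64 for CTCF (39.1%, 28.1 to 51.3; whole list 45.7%), 17 of 38 for Med12 (44.7%, 30.1 to 60.3; 59.0%) and 25 of 52 for p300 (48.1%, 35.1 to 61.3; 64.4%). In each factor the share was below that of all shared sites, and for p300 the interval did not hold that value. The differences at single sites have no replicate values behind them.

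**Figure D3:**
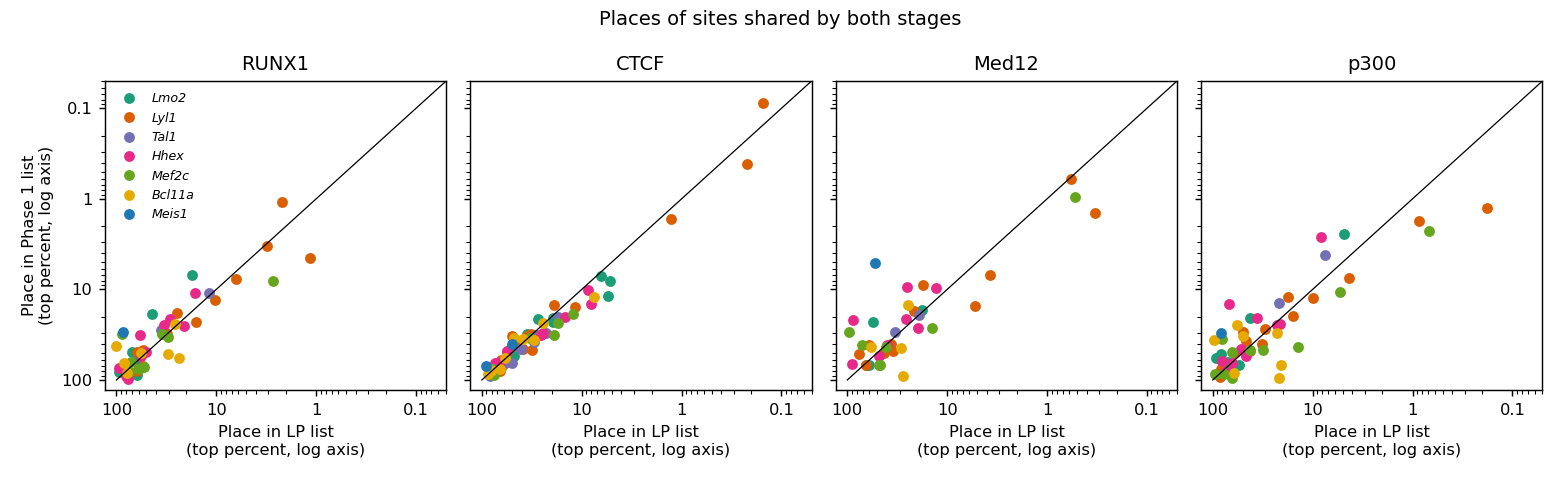
Place of each shared site in the LP list against its place in the Phase 1 list, as the top percent on log axes, for RUNX1, CTCF, Med12 and p300. Sites of Lyl1 and Mef2c lie among the best placed at both stages, and the Meis1 site at +93.9 kb and the Bcl11a site at +122.4 kb lie away from the line of equal place on opposite sides.

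RUNX1, Med12 and p300 were often listed together, as in the whole lists. Of all LP RUNX1 peaks in the windows, 80.4% had Med12 and 91.1% had p300 (whole list 84.7% and 90.8%). In Phase 1 these were 83.1% and 87.7% (whole list 86.0% and 87.8%). Of the 147 regions, 35 had RUNX1, Med12 and p300 all together at both stages, 4 in LP only and 7 in Phase 1 only. Regions were merged in the windows only, so no share over the whole series stands beside those counts. Med12 overlapped 6 of the 8 LP-specific RUNX1 peaks and 13 of the 17 Phase 1-specific peaks, where 61.9% and 75.0% of all such peaks had it. The p300 counts were 7 of 8 (all such peaks 76.0%) and 13 of 17 (79.6%). Among the 48 shared RUNX1 sites, Med12 was present at 39 in LP and 41 in Phase 1 (all shared sites 89.3% and 90.9%) and p300 at 44 at each stage (93.9% and 91.4%).

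CTCF lay on 3 of the 8 LP-specific RUNX1 peaks, 37.5% (13.7 to 69.4), beside 36.8% of all LP-specific RUNX1 peaks. These were the 2 Nfix intron sites of the Lyl1 window and Hhex -15.02 kb. It lay on 0 of the 17 Phase 1-specific RUNX1 peaks, an interval that reaches 18.4%, beside 6.96% of all such peaks. Of the 48 shared sites, 16 had CTCF in LP (33.3%, 21.7 to 47.5; all shared sites 20.5%) and 14 in Phase 1 (29.2%, 18.2 to 43.2; 19.5%), so that in LP the interval lay above the value of all shared sites. Most CTCF peaks of the windows stood apart from the other 3 factors, 48 of 72 in LP (66.7%, 55.2 to 76.5; whole list 79.1%) and 47 of 65 in Phase 1 (72.3%; whole list 81.5%).

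Binding strings were counted in the central 200 bases of each RUNX1 peak. The RUNX string lay in 22 of the 56 LP peaks (39.3%; whole list 42.0%) and 30 of the 65 Phase 1 peaks (46.2%; whole list 47.7%). In stretches of equal length 2 kb away, 11 of the 56 and 11 of the 65 held it (whole lists 17.4% and 17.1%). It was in 2 of the 8 LP-specific peaks (whole list 32.9%) and in 9 of the 17 Phase 1-specific peaks (52.9%, 31.0 to 73.8; whole list 53.9%). The RBPJ string, that of the DNA-binding partner of Notch1-IC, was in 4 of the 17 Phase 1-specific peaks (23.5%, 9.56 to 47.3; whole list 7.06%), at Hhex +8.31 kb, Lyl1 +73.2 kb, Mef2c +81.6 kb and Meis1 +48.8 kb, and in 0 of the 56 LP peaks (an interval that reaches 6.42%; whole list 4.23%). In the stretches 2 kb away it was in 1 of the 17 and 4 of the 56. None of the 17 peaks overlapped a Phase 1 Notch1-IC peak. The E-box string was in 9 of the 17 Phase 1-specific peaks (52.9%, 31.0 to 73.8; whole list 31.6%), an interval that held the whole-list value. It was also in 6 of the 17 stretches 2 kb away. The GATA string was in 2 of 17 (whole list 12.4%) and the PU.1 string in 1 of 17 (7.11%). Each of these strings was also in 2 of the 8 LP-specific peaks (whole list 6.60% for GATA and 8.12% for PU.1). The AP-1 string was in 0 of 17 (14.6%), and the CTCF consensus in 1 of the 8 LP-specific peaks (8.23%). A match is a description of letters, and overlapping strings such as an E-box beside a RUNX string are counted in each family.

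Notch1-IC was listed at these genes only in cells without the ligand. The LP list of 1585 peaks had 5 in the windows, and the Phase 1 list of 152 and the Phase 2 list of 352 had 0, so the lists differ greatly in length. The LP peaks were at Lyl1 -1.34 kb with 125.3, in the top 0.189% of its list, at Lyl1 +0.1 kb with 24, at Mef2c +68.1 kb with 77, in the top 2.46%, and at Bcl11a +122.4 kb with 21.1 and +165.1 kb with 19.5. Each overlapped a shared RUNX1 peak, and the member was the gene with the nearest start for all 5. None was listed at Lmo2, Tal1, Hhex or Meis1. At 4 of these 5 sites (37.6 to 96.4%), all but that at the Lyl1 start, RUNX1, Med12 and p300 were all placed lower in Phase 1 than in LP. Over the whole LP Notch1-IC list, 1346 peaks had these 3 factors at both stages, and 26.8% of them were placed lower in all 3.

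Guide-treated cells gave shorter lists, and the study describes these ChIPs as made from few cells. For Med12 in Phase 1 cells, 28 peaks of the sgCont list lay in the windows, and 18 of them were found again with the guide against Cbfb, the partner of RUNX1. That share was 64.3% (45.8 to 79.3), beside 67.8% of the whole sgCont list. In the other direction 18 of 35 sgCbfb peaks were found in sgCont (51.4%, 35.6 to 67.0; whole list 71.4%), which left 17 sgCbfb-only and 10 sgCont-only peaks. All 7 sgCont peaks at promoters were found again (whole list 92.3%), and 11 of the 21 elsewhere (49.8%). Of the sgCbfb peaks, 7 of 11 at promoters (63.6%, 35.4 to 84.8; whole list 92.4%) and 11 of 24 elsewhere (45.8%; 54.3%) were found in sgCont. The sgCont-only peaks scored 15.9 to 27, and with a score of at least 30 in both lists all 14 sgCont peaks were found again (whole list 75.6%).

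Stage-specific Med12 sites of the LP and Phase 1 cells without guides were then looked up in the 2 guide lists. Of the 13 LP-specific Med12 sites, 0 were in sgCont (whole list 10.9%) and 5 were in sgCbfb (38.5%, 17.7 to 64.5; whole list 27.4%). These were Lmo2 -56.4 kb with 19.5 and -12.9 kb with 25.8, Lyl1 +44.3 kb with 18.4, and Hhex -15.02 kb with 15.5 and +100.3 kb with 18.2. Of the 20 Phase 1-specific Med12 sites, 4 were in sgCont (20.0%, 8.07 to 41.6; whole list 9.71%) and 0 in sgCbfb (whole list 4.56%). These were Hhex +8.31 kb with 22.1, Lyl1 +29.5 kb with 18.1, Meis1 +70.0 kb with 18.5 and Bcl11a +54.0 kb with 22.1. The 38 shared Med12 sites were found 22 times in each list (whole lists 67.6% and 56.3% by LP peaks, 67.4% and 56.0% by Phase 1 peaks). Each LP-specific site that a guide list held was thus in sgCbfb, and each Phase 1-specific one in sgCont, but with the replicates combined this difference could not be tested.

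Some sites shared by both stages were also listed with 1 guide and not the other. Lmo2 -12.2 kb was listed with 27.0 in sgCont and was not listed in sgCbfb, while Lyl1 -1.35 kb was listed with 114.4 in sgCbfb and was not listed in sgCont. The Lyl1 promoter had 107.6 and 104.0 with the 2 guides, and Mef2c +68.2 kb had 69.4 in sgCont, in the top 18.4%, and 146.0 in sgCbfb, in the top 2.57%. Mef2c +105.3 kb had 29.7 and 57.3, Mef2c -45.1 kb had 17.8 in sgCont only, Bcl11a +165.1 kb had 19.6 in sgCont, and Meis1 +93.9 kb had 48.8 and 47.9. Of the 17 sgCbfb-only peaks, 5 lay on LP-specific Med12 sites (all sgCbfb-only peaks 21.7%), 6 on sites of both stages (33.9%), 0 on Phase 1-specific sites (7.81%) and 6 on neither (36.6%), among them the Meis1 start with 19.3. Of the 10 sgCont-only peaks, 6 lay on sites of both stages (73.4%), 4 on Phase 1-specific sites (19.2%), 0 on LP-specific sites (2.41%) and 0 on neither (4.94%).

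**Figure D4:**
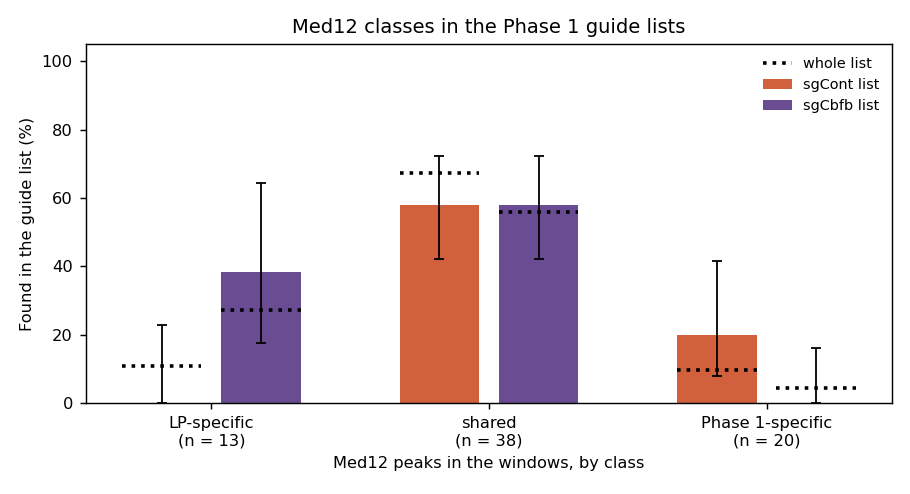
Percent of Med12 sites in the 7 windows that were listed in sgCont or sgCbfb Phase 1 cells, for sites that were LP-specific, shared and Phase 1-specific in cells without guides, with 95% Wilson intervals and the whole-list value as a dotted line. LP-specific sites were listed only in sgCbfb (5 of 13) and Phase 1-specific sites only in sgCont (4 of 20).

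RUNX1 itself was too sparsely listed in guide-treated cells to compare these genes. LP cells had 3 window peaks of 975 with sgCont, at Lyl1 -37.4 kb with 32.2, Lyl1 -1.33 kb with 28.2 and the Stil promoter at Tal1 -56.4 kb with 18, and 2 of 874 with sgCTCF, at Lyl1 -37.4 kb with 31.4 and Tal1 -56.4 kb with 19.5. So 2 of the 3 sgCont peaks were found again (whole list 59.1%), with Lyl1 -1.33 kb the one not listed, and both sgCTCF peaks were in sgCont (65.9%). Phase 1 cells had 2 of 1550 with sgCont, both in Lyl1 and both found again with sgMed12 (whole list 71.0%), at -0.07 kb with 39 and at +2.10 kb. With sgMed12 the list of 2094 had 4, of which 2 were also in sgCont (whole list 52.6%), and those without a partner were Lyl1 -38.5 kb with 24.1 and Mef2c +68.2 kb with 25.9.

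The same counts in the windows of the T-lineage genes Tcf7, Lef1, Gata3, Bcl11b, Hes1, Tox and Ets1 are set beside those of the members, with each site counted once over both stages. For the 7 members, 17 of 73 RUNX1 sites (23.3%) and 20 of 71 Med12 sites (28.2%) were Phase 1-specific. For the T-lineage genes these were 26 of 86 (30.2%) and 42 of 95 (44.2%), and over the whole lists 26.9% and 33.3%. The LP-specific share of Med12 sites was 13 of 71 (18.3%) for the members, 12 of 95 (12.6%) for the T-lineage genes and 13% over the whole lists. The other factors differed less between members and T-lineage genes in this share. For RUNX1 it was 8 of 73 (11%) beside 9 of 86 (10.5%), with 12.3% over the whole lists. For p300 it was 14 of 87 (16.1%) beside 18 of 110 (16.4%), with 13.2% over the whole lists. For CTCF it was 8 of 73 (11%) beside 7 of 58 (12.1%), with 8.82% over the whole lists. For CTCF, the Phase 1-specific count of 1 of 73 (1.37%) stood beside 6 of 58 (10.3%; whole lists 7.61%), and for p300 the Phase 1-specific count of 21 of 87 (24.1%) stood beside 33 of 110 (30.0%; whole lists 36.1%).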

How the data were processed

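RUNX1, CTCF, Med12, p300 and Notch1-IC were profiled by ChIP-seq after DSG and formaldehyde fixation in 38 samples, 4 of them input. The authors aligned reads to mm10 with Bowtie 1.1.1, called peaks with HOMER findPeaks in factor style against matched controls, kept peaks reproducible between both replicates by IDR with a score of at least 15, and deposited 17 lists in which each peak has 1 normalized score. The files do not state the scale of that score, and no columns were left unmapped.

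Windows ran 100 kb beyond each GENCODE M21 gene body. Peaks were compared by overlap of at least 1 bp, shares were given with 95% Wilson intervals beside the share of the whole list, and nearest starts came from RefSeq (585 of 585 window peaks matched). Sequence was read from the mm10 genome. The overlap and string-search code was tested on simulated peaks and sequences. Sequencing depth is not in these lists. All 7 genes were described, and single peaks were named where they were the highest-scored RUNX1 or stage-specific RUNX1 peak of a gene, nearest to its start, Notch1-IC peaks, RUNX1 peaks of guide lists, LP-specific RUNX1 peaks with CTCF, or stage-specific CTCF peaks. A list of other progenitor genes is not reported here. Other sites were picked after their values were seen. The genes, gene lists and strings were chosen with earlier results of these data known. Python 3.11.15, pandas 2.3.3, scipy 1.17.1 and pysam 0.24.0 were used. Alternatives changed the overlap, score minimum, window and gene set, and the closing section gives their effect.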

Additional observations from a re-analysis of the deposited data

How the results depend on the processing

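No paired analysis was possible because each list combines both replicates, and leaving out a replicate could not be run for the same reason. For 20 counts and shares, 15 alternatives gave 287 values, of which 270 stayed close to the reported value and 17 did not. A further 4 runs had no peaks left. For shares, close meant within the counting interval, and the Notch1-IC counts were judged by their ratio to the reported count. Those of Phase 1 and Phase 2 were 0 and no alternative could raise them, so their runs could not move. Leaving out 1 gene at a time kept 134 of 139 values close by the same rules. Some of the values that moved rest on few peaks, and others on shortened lists or a gene left out. With windows of 5 kb around gene bodies, 0% of 17 LP RUNX1 peaks were LP-specific, and without Bcl11a 0% of 54 Phase 1 CTCF peaks were Phase 1-specific. When lists were cut to the same number of peaks, the Phase 1-specific share of Med12 was 22.9% (whole list 27.4%) and the LP-specific share of p300 was 34.8% (30.9%). Med12 lay on 33.3% of the LP-specific RUNX1 peaks with windows of 50 kb (1 of 3) and on 100% with the nearest gene (2 of 2). p300 lay on 100% with the nearest gene (2 of 2) and on 100% without Mef2c (7 of 7). The share of LP RUNX1 sgCont peaks found again in sgCTCF was 100% with a score of at least 30 (1 of 1) and without Lyl1 (1 of 1), and 0% with gene bodies or the nearest gene (0 of 1 each). With a score of at least 30, 100% of the Med12 sgCont peaks (14 of 14; whole list 75.6%) were in sgCbfb, and 2 LP Notch1-IC peaks were left in place of 5, with 3 for gene bodies, without Lyl1 or without Bcl11a. The lists hold no depth, and a peak that is not listed may have scored under the minimum or failed reproducibility. The Phase 1 Notch1-IC list of 152 peaks limits any comparison with the LP list of 1585.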

Other observations

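The Med12 peaks listed with 1 guide only were also set against Phase 1 CTCF peaks, a comparison chosen after the data were seen. In the 7 windows, 7 of the 17 sgCbfb-only Med12 peaks overlapped CTCF (41.2%, 21.6 to 64.0), beside 44.5% of all sgCbfb-only peaks. Of the 10 sgCont-only peaks, 0 overlapped CTCF, an interval that reaches 27.8%, beside 13.6% of all sgCont-only peaks. Of the 6 sgCbfb-only peaks that lay on Med12 sites of both stages, 1 had a higher place in the Phase 1 Med12 list than in the LP list (16.7%, 3.01 to 56.4), beside 48.2% of all such sgCbfb-only peaks. Of the 6 such sgCont-only peaks, 5 had a higher place in Phase 1 (83.3%, 43.6 to 97.0), beside 81.1% of all such sgCont-only peaks. Both intervals held the value of the whole list.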
